A study of Mus musculus with 12 samples.

Results

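The genes described here are 48 enzymes and transporters through which the liver breaks down amino acids and disposes of the nitrogen as urea. They were taken as a fixed list of symbols, grouped into 12 amino acid pathways, and kept where a gene reached 1 CPM (counts scaled to a common library total) in at least 3 libraries. All 48 of 48 listed genes met that condition, and all met it in each of the 12 libraries; the deposited table held 54838 gene identifiers. The samples were livers of C57BL/6J mice kept for 24 h at 21% O2 (normoxia) or 7% O2 (hypoxia). Mice of each oxygen level were injected with PBS, the vehicle, or with dexamethasone (DEX) at 10 mg/kg, a synthetic ligand of the glucocorticoid receptor, and were sampled 2 h later, the hypoxia groups after a return to 7% O2. This gave Normoxia_PBS and Normoxia_DEX at 21% O2 and Hypoxia_PBS and Hypoxia_DEX at 7% O2, 4 groups of 3 libraries that the submitters describe as biological replicates. The labels name no engineered allele, and the tissue was whole liver, so hepatocytes and the other liver cells were measured together.

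In the liver, amino groups are moved from amino acids to glutamate and aspartate by transaminases, released as ammonia in mitochondria, and condensed into urea by a cycle that runs between mitochondria and cytosol. The carbon skeletons pass into glucose, ketone bodies or the methyl group and sulfur cycles. Glucocorticoids are textbook inducers of several of these enzymes, tyrosine aminotransferase (Tat) and tryptophan dioxygenase (Tdo2) among them. Several members, such as the dioxygenases of tyrosine and tryptophan breakdown, use molecular oxygen as a substrate.

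Promoter sequences are shown for 4 members, each with a match to a core sequence described below. Tat and Slc25a15, the mitochondrial ornithine carrier, had the largest rises after DEX, in hypoxia and normoxia respectively, and Hal and Amdhd1 are adjacent genes of histidine breakdown that both fell in hypoxia. Each sequence is the 250 bases before a RefSeq start site, from the GRCm38.p6 assembly (mm10), written 5′ to 3′ on the strand of the gene. Capitals mark a match to ACGTG or GCGTG, the core that hypoxia-inducible factors are known to bind. The Tat window lies at chr8:109990186-109990435 on the plus strand, that of Slc25a15 at chr8:22398622-22398871 on the minus strand, that of Hal at chr10:93488518-93488767 on the plus strand and that of Amdhd1 at chr10:93540034-93540283 on the minus strand.
Tat: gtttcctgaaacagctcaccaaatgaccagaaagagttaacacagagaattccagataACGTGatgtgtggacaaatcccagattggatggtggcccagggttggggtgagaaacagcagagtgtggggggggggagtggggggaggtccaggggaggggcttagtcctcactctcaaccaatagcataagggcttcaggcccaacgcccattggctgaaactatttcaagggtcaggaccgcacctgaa
Slc25a15: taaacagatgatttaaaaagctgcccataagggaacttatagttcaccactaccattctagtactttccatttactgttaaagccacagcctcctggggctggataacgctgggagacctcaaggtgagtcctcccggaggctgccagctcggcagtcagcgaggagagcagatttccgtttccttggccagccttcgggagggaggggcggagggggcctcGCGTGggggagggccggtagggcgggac
Hal: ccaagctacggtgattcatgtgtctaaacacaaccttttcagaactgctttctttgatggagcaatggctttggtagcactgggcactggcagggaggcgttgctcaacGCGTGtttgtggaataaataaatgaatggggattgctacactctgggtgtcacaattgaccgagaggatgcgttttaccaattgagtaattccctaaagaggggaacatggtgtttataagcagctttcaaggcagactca
Amdhd1: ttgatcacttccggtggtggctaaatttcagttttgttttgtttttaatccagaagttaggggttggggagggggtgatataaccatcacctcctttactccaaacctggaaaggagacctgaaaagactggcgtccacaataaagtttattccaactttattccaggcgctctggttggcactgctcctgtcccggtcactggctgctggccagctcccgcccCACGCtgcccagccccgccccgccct

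Counted back from the start site, the match in Tat was ACGTG at -192 to -188, that in Slc25a15 was GCGTG at -28 to -24 and that in Hal was GCGTG at -141 to -137. Amdhd1 held GCGTG on the other strand at -26 to -22, which reads CACGC as printed. Slc25a15 has a further RefSeq start downstream, whose window overlaps exon sequence and is not shown. The windows of Bhmt, Agxt, Gldc and Aass, also not shown, held neither ACGTG nor GCGTG on either strand. Bhmt and Agxt had the largest rise and the largest fall of the module in hypoxia, and the Bhmt window overlaps exon sequence. RefSeq windows were found for 37 of the 48 genes, 41 windows in all. Either core was present on either strand in 23 of the 41 windows (56.1%) and in 38.6% of all 32851 RefSeq windows of that length. ACGTG also forms part of the E-box CACGTG, so these counts include E-boxes. The hexamer AGAACA of the glucocorticoid receptor's binding site was present on either strand in 3 of 41 windows (7.32%), those of Haao, Agxt and Bckdhb, and in 16.1% of all windows. Its full form, AGAACA followed after 3 bases by its reverse complement TGTTCT, was present in 0 of 41 member windows and in 3 of all windows. These are matches of letters within a short window and were not read as binding sites.

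Library totals ranged from 12464687 to 24715995 counts, and 13861 genes entered the tests. A list of 13 hepatocyte markers summed to between 144478 and 185411 CPM per library, whereas 7 kidney tubule and 9 pancreatic acinar markers summed to at most 0.593 and 0.637 CPM. Over all tested genes, 18.9% were higher and 16.8% lower in hypoxia with PBS, and 20.7% and 22.2% with DEX. Macrophage markers moved with oxygen: all 12 Kupffer cell markers tested were lower in hypoxia with PBS and with DEX. Their summed level was 527 to 695 CPM in Normoxia_PBS, 569.9 to 804 in Normoxia_DEX, 215 to 264 in Hypoxia_PBS and 228 to 249 in Hypoxia_DEX. Of 10 stellate cell markers, 6 were lower in hypoxia with PBS and 8 with DEX (summed 394 to 522 CPM in Normoxia_PBS, 518 to 559.7 in Normoxia_DEX, 349.9 to 407 in Hypoxia_PBS and 424 to 438 in Hypoxia_DEX). Of 12 endothelial markers, 7 were lower and 1 higher with PBS and 5 lower and 1 higher with DEX (summed 705 to 766 CPM in Normoxia_PBS, 706 to 782 in Normoxia_DEX, 634 to 642 in Hypoxia_PBS and 652 to 669 in Hypoxia_DEX). Of the 13 hepatocyte markers, 5 were lower with each treatment. Their sum was 144478 to 154674 CPM in Normoxia_PBS, 171394 to 185411 in Normoxia_DEX, 150358 to 170453 in Hypoxia_PBS and 159419 to 165239 in Hypoxia_DEX. Of 5 neutrophil markers tested, 1 was higher with PBS and 2 with DEX, at 7.00 to 81.2 CPM summed over the libraries, lowest in Normoxia_DEX (7.00 to 14.1). Of 8 lymphocyte markers, 3 were lower with PBS and 1 with DEX (summed 7.51 to 9.94 CPM in Normoxia_PBS and 3.84 to 6.39 in the other groups). Of 6 cholangiocyte markers, 2 were lower with PBS and 0 with DEX (44.2 to 66.2 CPM in Normoxia_PBS, 24.8 to 45.3 in Hypoxia_PBS and 23.2 to 38.0 in the DEX groups). Of 5 erythroid markers, 1 was higher with PBS and 1 lower with DEX, at 52.3 to 108 CPM. In whole liver, fewer cells of a type and less RNA per cell cannot be told apart, and the part of either in the results below was not tested. Among the libraries, Normoxia_PBS-3 was the highest of its group for 45 of the 48 members, with a median log2 ratio of 0.35 to the other libraries of the group, and Hypoxia_PBS-3 was the lowest of its group for 34. Hypoxia_DEX-1 and Hypoxia_DEX-3 were close to each other, with a chi-square of 1.79 per gene between their counts against 10.5 to 38.5 for the other pairs within groups. On the second principal component of the 1000 most variable genes Hypoxia_DEX-2 and Hypoxia_PBS-1 lay apart from the other libraries of their groups.

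Hypoxia moved the module in both directions in nearly equal numbers. With PBS, 17 of the 48 members (35.4%) rose and 17 (35.4%) fell in Hypoxia_PBS against Normoxia_PBS (edgeR, adjusted p under 0.05), whereas 18.9% of all tested genes rose and 16.8% fell. The tested genes include some at lower levels than any member. Here and below, shares and correlations over all genes were not matched to the members for level. With DEX, 14 (29.2%) rose and 16 (33.3%) fell in Hypoxia_DEX against Normoxia_DEX, where 20.7% of all genes rose and 22.2% fell. The members' median log2 fold change was -0.07 with PBS and -0.09 with DEX, beside 0.0069 and -0.021 over all tested genes. The 3 libraries of each group did not overlap for 30 members with PBS and 39 with DEX, where 45.7% and 56.6% of all genes did not overlap.

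DEX moved fewer members, and more of them upward. In normoxia 11 of 48 (22.9%) rose and 2 (4.17%) fell, against 9.38% and 7.4% of all tested genes. In hypoxia 9 (18.8%) rose and 4 (8.33%) fell, against 6.13% and 7.05% of all genes. The median log2 fold change of the members was 0.09 in normoxia and 0.18 in hypoxia, beside 0.0021 and -0.015 over all genes. Groups did not overlap for 15 members in normoxia and 24 in hypoxia, where 35.9% and 29.9% of all genes did not overlap. Of the 48 members, 37 were called in at least 1 oxygen comparison and 17 in at least 1 DEX comparison, where 51.8% and 22.5% of all tested genes were. These included 26 called by oxygen alone, 6 by DEX alone (Tat, Aass, Got1, Sds, Prodh2 and Bcat2) and 11 by both, against 37.1%, 7.71% and 14.8% of all genes. Hpd, Fah, Kynu, Cps1 and Bckdhb were called in none of these 4 comparisons, as were 40.5% of all genes. Of these 5, Hpd, Kynu, Cps1 and Bckdhb each passed the threshold in 1 or 2 of 20 alternative fits of some comparison.

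These counts moved with the libraries described above. Without Normoxia_PBS-3, 18 members were higher after DEX in normoxia, with Ahcy, Ass1, Bhmt, Gpt, Hgd, Hpd and Mat1a added, and 14 in hypoxia, with Arg1, Asl, Gpt, Hpd and Tdo2 added. Without Hypoxia_PBS-1 the number higher after DEX in hypoxia was also 14, with Arg1, Asl, Bckdha, Ftcd, Got2 and Gpt2 added and Ass1 lost. With neither Hypoxia_DEX-2 nor Hypoxia_PBS-1 in the fit, hypoxia with PBS gave 13 higher and 14 lower, and DEX in hypoxia gave 13 higher and 4 lower. With the close pair Hypoxia_DEX-1 and Hypoxia_DEX-3 added together, DEX in hypoxia gave 6 higher and 2 lower.

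**Figure D1:**
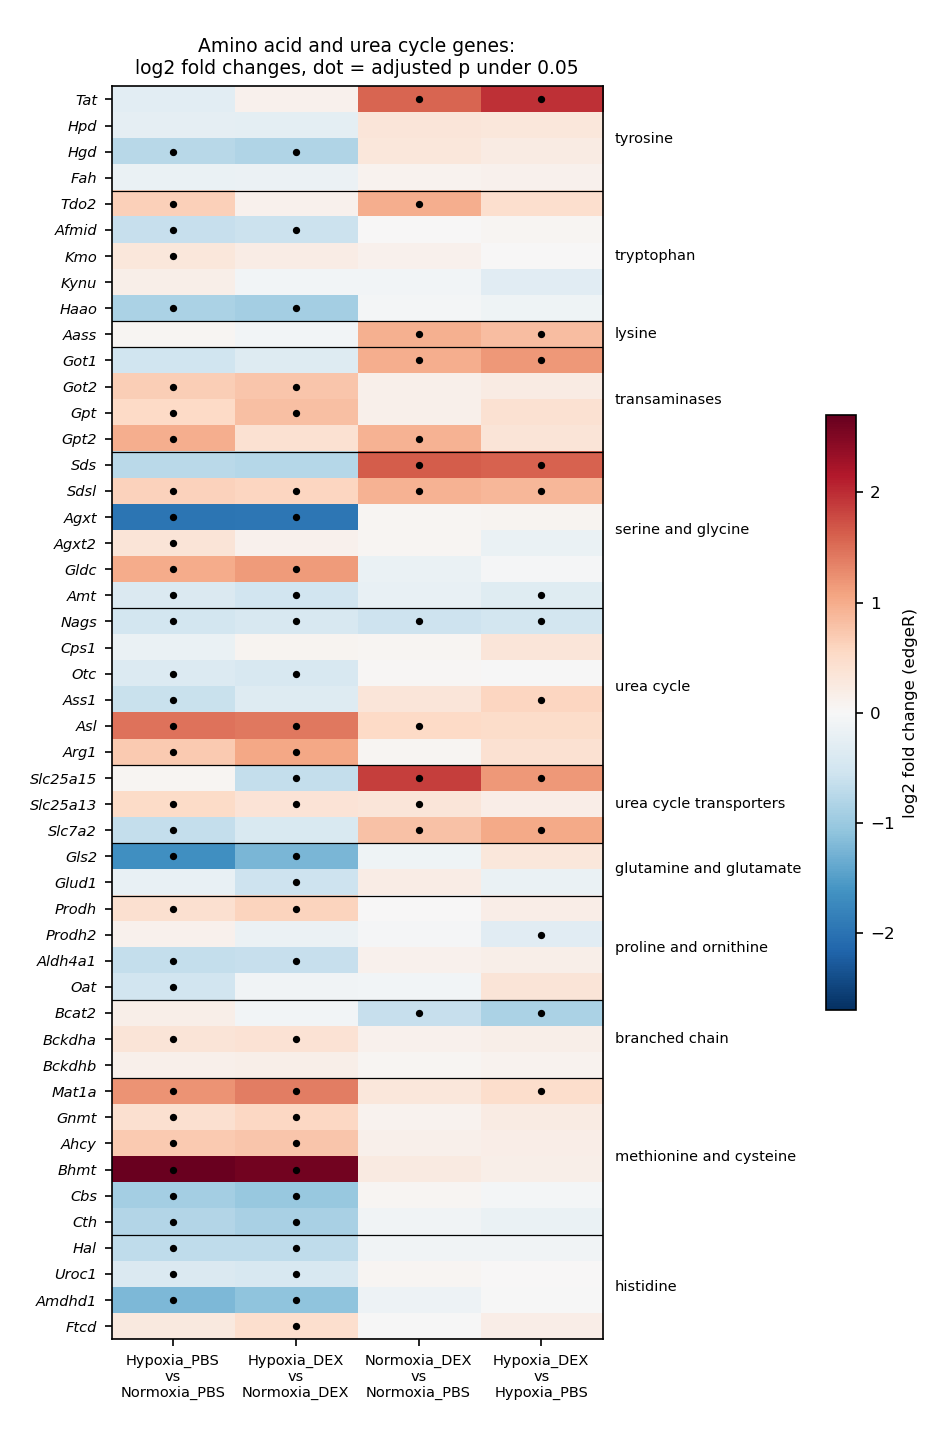
Log2 fold changes of the 48 genes (rows, by pathway) in 4 comparisons (columns), from edgeR; red is higher and blue lower in the group named above, and a dot marks an adjusted p under 0.05. The oxygen columns hold 17 higher and 17 lower (PBS) and 14 higher and 16 lower (DEX), and the DEX columns 11 and 2 (normoxia) and 9 and 4 (hypoxia).

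The tyrosine pathway differed by step. Tat, tyrosine aminotransferase and the entry step of the pathway, rose after DEX at both oxygen levels, whereas the later enzyme Hgd, homogentisate dioxygenase, fell in hypoxia and was not called after DEX (without Normoxia_PBS-3 it was, at 0.44 in normoxia). Tat (chr8:109990437-109999803, plus strand, mm10) was at 1120.3, 1226 and 2356 CPM with PBS in normoxia and at 4464, 4492 and 4953 in Normoxia_DEX. In hypoxia it was at 1268, 1655 and 960.3 with PBS and at 5146, 4966 and 5072 with DEX. Every DEX library was above every PBS library at either oxygen level, and the highest PBS value was that of Normoxia_PBS-3. The log2 fold change was 1.56 ± 0.27 (SE) in normoxia (adjusted p = 0.00265) and 1.97 ± 0.28 in hypoxia (adjusted p = 0.00113). Between oxygen levels Tat was not called, at -0.28 with PBS and 0.13 with DEX.

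Hgd was at 525, 532 and 691 CPM in Normoxia_PBS and at 336, 395 and 312 in Hypoxia_PBS, and at 656, 794 and 702 in Normoxia_DEX and 398, 403 and 416 in Hypoxia_DEX. The hypoxia libraries were all below the normoxia libraries of the same treatment, with log2 fold changes of -0.75 ± 0.12 (adjusted p = 0.000387) and -0.82 ± 0.12 (adjusted p = 0.000129). Hpd, the dioxygenase that comes before Hgd, was at 1991 ± 402 CPM (SD, n = 3) in Normoxia_PBS, 2506 ± 308 in Normoxia_DEX, 1678 ± 112 in Hypoxia_PBS and 2087 ± 52.8 in Hypoxia_DEX. Fah, which cleaves fumarylacetoacetate at the end of the pathway, ranged between 459.9 ± 31.7 CPM in Hypoxia_PBS and 555 ± 17.0 in Normoxia_DEX. Neither Hpd nor Fah was called in these comparisons, with log2 fold changes of -0.26 to 0.33 for Hpd and -0.18 to 0.11 for Fah.

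In tryptophan breakdown, 2 of 5 members rose and 2 fell in hypoxia with PBS, and 2 fell in hypoxia with DEX. Tdo2, the heme dioxygenase that opens the pathway, was at 1057, 923 and 1569.6 CPM in Normoxia_PBS and at 2069, 2427 and 2561 in Normoxia_DEX. With hypoxia it was at 2112, 1857 and 1609.7 with PBS and 2577, 2510.4 and 2554 with DEX. Normoxia_PBS was the low group, all of its libraries lying below those of every other group. Tdo2 rose after DEX in normoxia (log2 0.99 ± 0.17, adjusted p = 0.00129) and in hypoxia with PBS (0.65 ± 0.17, adjusted p = 0.00965); both comparisons use the same Normoxia_PBS libraries. After DEX in hypoxia it was at 0.45 ± 0.17 (adjusted p = 0.0992), also with groups that did not overlap, and without Normoxia_PBS-3 that comparison passed the threshold (0.45). The hypoxia call with PBS was lost with Hypoxia_DEX-2 and Hypoxia_PBS-1 left out (0.54).

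Haao, the dioxygenase that acts on hydroxyanthranilate late in the pathway, was at 374, 392 and 445 CPM in Normoxia_PBS and 230.4, 246 and 196 in Hypoxia_PBS. With DEX it was at 359, 395 and 409 in normoxia and 199, 209 and 212 in hypoxia. Hypoxia libraries lay below normoxia libraries throughout, at log2 -0.85 ± 0.10 (adjusted p = 2.93e-05) and -0.91 ± 0.10 (adjusted p = 1.16e-05). Afmid, the formamidase of the second step, fell with PBS (-0.62 ± 0.15) and with DEX (-0.59 ± 0.15), from 41.7 ± 6.44 CPM in Normoxia_PBS to 27.1 ± 5.60 in Hypoxia_PBS. Afmid overlaps Gm20708 and Tk1 on the genome, which reach up to 17.2 CPM. Kmo, the mitochondrial kynurenine monooxygenase, rose in hypoxia with PBS (0.31 ± 0.08, adjusted p = 0.0119). Kynu, kynureninase, was at -0.30 to 0.17 over the 4 comparisons and was not called. The Kmo call was lost without Normoxia_PBS-2 (log2 0.23), and Kmo overlaps Fh1, a gene of up to 237 CPM, on the genome.

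Lysine breakdown was represented by Aass, the mitochondrial enzyme that joins lysine to ketoglutarate and splits the product. It was at 323, 330.4 and 452 CPM in Normoxia_PBS, 709, 761 and 664 in Normoxia_DEX, 425, 385 and 329 in Hypoxia_PBS and 649, 720.4 and 648 in Hypoxia_DEX. All 6 DEX libraries were above all 6 PBS libraries. Aass rose by 0.95 ± 0.13 (log2, SE) in normoxia (adjusted p = 0.000166) and by 0.82 ± 0.13 in hypoxia (adjusted p = 0.000972), and by oxygen it was at 0.04 and -0.08, not called.

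**Figure D2:**
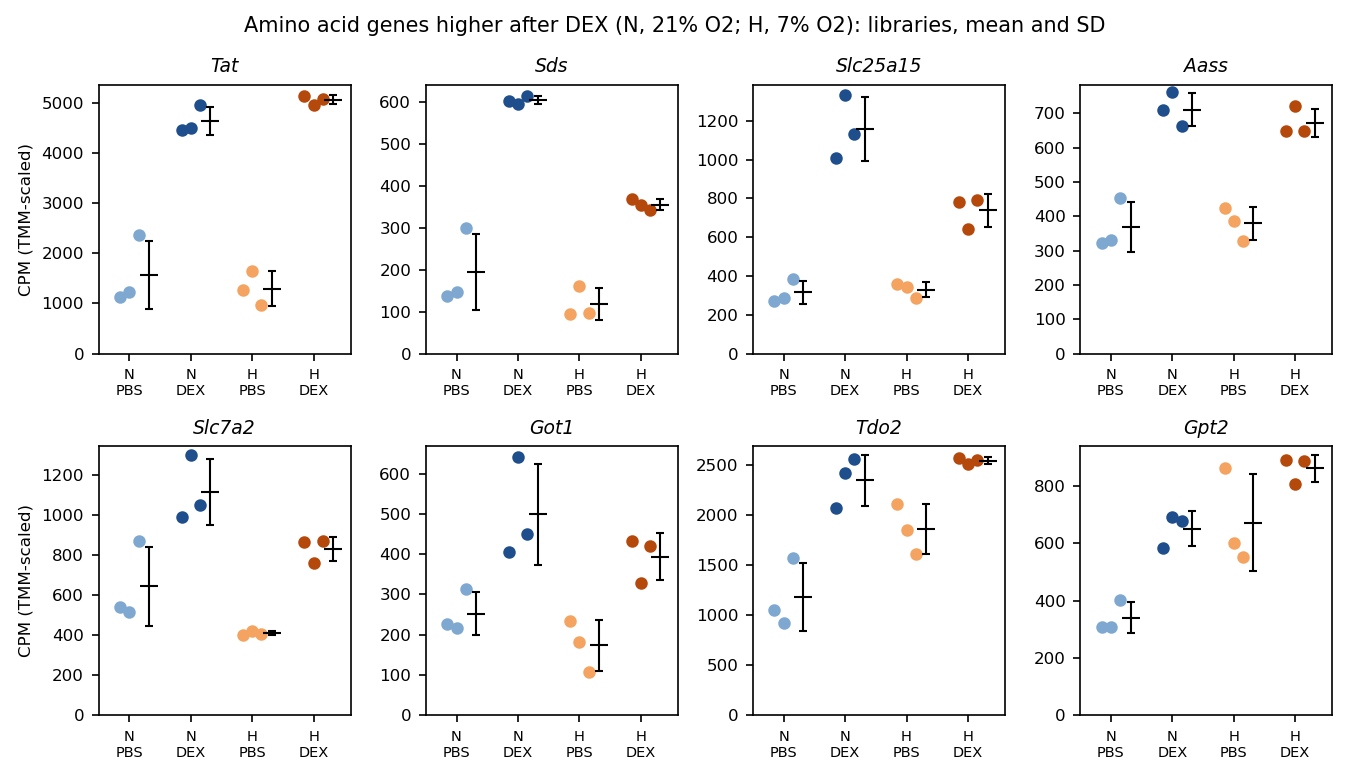
TMM-scaled CPM of 8 genes in each library (points), with mean and SD (bars, n = 3), for normoxia (N, 21% O2) and hypoxia (H, 7% O2) with PBS or DEX; each vertical axis starts at 0. In every panel but Gpt2, which overlaps in hypoxia, each DEX library lies above each PBS library of the same oxygen level. Normoxia_PBS-3 is the high point of its group in all 8 panels.

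The aspartate aminotransferases differed between their cytosolic and mitochondrial forms. Got1, the cytosolic aspartate aminotransferase, was called after DEX and not by oxygen, whereas Got2, its mitochondrial counterpart, was called by oxygen and not after DEX, except in hypoxia without Hypoxia_PBS-1 (0.33). Got1 was at 226, 217 and 313 CPM in Normoxia_PBS and 405, 642 and 450.2 in Normoxia_DEX, and at 233, 181 and 107 in Hypoxia_PBS and 433, 327 and 420.3 in Hypoxia_DEX. The DEX libraries lay above the PBS libraries at each oxygen level, with a wide spread in Normoxia_DEX. The log2 fold changes after DEX were 0.99 ± 0.28 (adjusted p = 0.0405) and 1.18 ± 0.29 (adjusted p = 0.0238). These calls were lost in 11 and 7 of 20 alternatives, among them without 8 single libraries in normoxia (0.76 to 1.04) and 3 in hypoxia (1.12 to 1.23). Both were also lost with replicate numbers as a blocking term, at 0.98 (adjusted p = 0.0863) in normoxia and 1.20 (adjusted p = 0.0540) in hypoxia. Got2 rose in hypoxia from 205 ± 16.0 to 326 ± 35.1 CPM with PBS (log2 0.67 ± 0.09, adjusted p = 0.000103) and from 225 ± 12.9 to 378 ± 9.30 with DEX (0.75 ± 0.09, adjusted p = 2.72e-05).

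Both alanine aminotransferases rose in hypoxia with PBS. Gpt2, the mitochondrial form, was at 309, 309 and 403 CPM in Normoxia_PBS, 583, 692 and 680.1 in Normoxia_DEX, 865, 600.2 and 554 in Hypoxia_PBS and 891, 808 and 888 in Hypoxia_DEX. As for Tdo2, Normoxia_PBS was below every other group without overlap. Gpt2 rose in hypoxia with PBS (0.98 ± 0.16, adjusted p = 0.000496) and after DEX in normoxia (0.94 ± 0.16, adjusted p = 0.00111), and was at 0.36 ± 0.16 after DEX in hypoxia and 0.40 ± 0.16 in hypoxia with DEX (adjusted p = 0.0533), neither called. After DEX in hypoxia it was called without Hypoxia_PBS-1 (0.61), also with Hypoxia_DEX-2 left out too (0.65). In hypoxia with DEX it was called in 9 of 20 alternatives, DESeq2 and RLE size factors among them, with values of 0.33 to 0.47 over all 20. Gpt, the cytosolic form, rose in hypoxia with DEX (0.82 ± 0.16, adjusted p = 0.00175) and with PBS (0.54 ± 0.16, adjusted p = 0.0224). With PBS its groups overlapped, and the call was lost without Hypoxia_PBS-1, Hypoxia_PBS-2, Normoxia_PBS-1 or Normoxia_PBS-2 (0.38 to 0.53).

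Serine and glycine breakdown held the largest fall of the module, Agxt in hypoxia, and a DEX response in both serine dehydratases. Agxt (chr1:93135240-93145421, plus strand), alanine-glyoxylate aminotransferase, which clears glyoxylate, was at 314, 331 and 402 CPM in Normoxia_PBS and 99.95, 93.3 and 74.9 in Hypoxia_PBS. With DEX it was at 332, 479 and 276 in normoxia and 86.6, 109 and 84.9 in hypoxia. The highest hypoxia library was far below the lowest normoxia library. The log2 fold change was -1.97 ± 0.20 with PBS (adjusted p = 3.85e-05) and -1.95 ± 0.20 with DEX (adjusted p = 2.66e-05). DEX left Agxt uncalled, at 0.05 ± 0.19 and 0.07 ± 0.20.

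Sds, serine dehydratase, which turns serine into pyruvate, was at 137, 146 and 299 CPM in Normoxia_PBS and 602, 597 and 616 in Normoxia_DEX, and at 94.5, 161 and 97.7 in Hypoxia_PBS and 368, 355 and 344 in Hypoxia_DEX. No DEX library overlapped the PBS libraries, and Hypoxia_DEX lay between Normoxia_DEX and the PBS groups. Sds rose after DEX by 1.64 ± 0.30 (log2) in normoxia (adjusted p = 0.00436) and 1.59 ± 0.30 in hypoxia (adjusted p = 0.00762). By oxygen it was at -0.72 ± 0.30 with PBS (adjusted p = 0.0863) and -0.77 ± 0.29 with DEX (adjusted p = 0.0608), neither called. The value with PBS was called lower in 3 of 20 alternatives, by DESeq2 and without Hypoxia_PBS-2 (-1.02) or Normoxia_PBS-1 (-0.92). The value with DEX was called lower in 5 of 20, DESeq2 among them, at -0.77 to -0.73 over all 20. Its paralog Sdsl rose in all 4 comparisons, from 8.23 ± 1.26 CPM in Normoxia_PBS to 23.5 ± 2.48 in Hypoxia_DEX, by log2 0.61 and 0.58 in hypoxia and 0.94 and 0.91 after DEX (adjusted p between 0.000783 and 0.00882). The 2 genes are neighbours on chromosome 5, transcribed away from each other with 3715 bases between them (Sds chr5:120476526-120483932, plus strand; Sdsl chr5:120458186-120472810, minus strand). Sds overlaps Plbd2, a gene of up to 76.0 CPM.

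Glycine cleavage, a mitochondrial complex of several proteins, moved in opposite directions by subunit. Gldc, its decarboxylase, was at 179.8, 190.5 and 219.6 CPM in Normoxia_PBS and 456, 365 and 355 in Hypoxia_PBS, and at 167, 166 and 186 in Normoxia_DEX and 401, 359 and 397 in Hypoxia_DEX. All hypoxia libraries were higher, by log2 0.995 ± 0.11 (adjusted p = 2.03e-05) and 1.16 ± 0.11 (adjusted p = 4.66e-06). Amt, its aminomethyltransferase, fell in hypoxia with PBS (-0.39 ± 0.10) and with DEX (-0.51 ± 0.10), from 49.6 ± 1.20 CPM in Normoxia_PBS to 37.9 ± 5.13 in Hypoxia_PBS and 30.3 ± 3.44 in Hypoxia_DEX. After DEX in hypoxia Amt also fell (-0.33 ± 0.10, adjusted p = 0.0426), a call lost in 13 of 20 alternatives, 9 of them single libraries left out (-0.33 to -0.20). Agxt2, a mitochondrial aminotransferase that also uses glyoxylate, rose in hypoxia with PBS (0.34 ± 0.12, adjusted p = 0.0404), a call lost in 10 of 20 alternatives, 7 of them single libraries left out (0.27 to 0.33).

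Of the 6 urea cycle members, 3 fell (Nags, Otc and Ass1) and 2 rose (Asl and Arg1) in hypoxia with PBS. With DEX, Nags and Otc fell and Asl and Arg1 rose, and Ass1 was at -0.35 ± 0.17 (adjusted p = 0.104). Asl (chr5:130011258-130029247, minus strand), argininosuccinate lyase, was at 373, 416 and 623 CPM in Normoxia_PBS and 1429, 1308 and 1159.8 in Hypoxia_PBS, and at 674, 708 and 660.4 in Normoxia_DEX and 1933, 1663 and 1892 in Hypoxia_DEX. Every hypoxia library was above every normoxia library. Asl rose by log2 1.46 ± 0.16 (adjusted p = 2.82e-05) with PBS and 1.43 ± 0.16 (adjusted p = 2.23e-05) with DEX.

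Arg1, the arginase that releases urea, was at 965, 970.0 and 1344 CPM in Normoxia_PBS and 2099, 1708 and 1511 in Hypoxia_PBS, and at 1079, 1199.8 and 1145 in Normoxia_DEX and 2598, 1953 and 2540.1 in Hypoxia_DEX. The groups of each pair did not overlap, with log2 fold changes of 0.70 ± 0.15 (adjusted p = 0.00392) and 1.05 ± 0.16 (adjusted p = 0.00018). Otc, ornithine transcarbamylase, fell from 455 ± 34.6 to 351 ± 27.3 CPM with PBS (-0.37 ± 0.09, adjusted p = 0.00637) and from 468 ± 43.3 to 347 ± 16.7 with DEX (-0.43 ± 0.09, adjusted p = 0.00189). Nags, which makes the acetylglutamate that switches on Cps1, was the sole member to fall in all 4 comparisons. It was at 85.2 ± 9.94 CPM in Normoxia_PBS, 58.1 ± 4.39 in Normoxia_DEX, 60.6 ± 2.97 in Hypoxia_PBS and 43.2 ± 1.78 in Hypoxia_DEX. The Nags log2 fold changes were -0.49 ± 0.09 and -0.43 ± 0.09 in hypoxia and -0.55 ± 0.09 and -0.49 ± 0.09 after DEX, with adjusted p between 0.000594 and 0.00281.

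Cps1, the mitochondrial carbamoyl phosphate synthetase through which ammonia enters the cycle, was not called in the 4 comparisons; after DEX in hypoxia it was without Hypoxia_PBS-2 (0.47). It was at 5496, 6069 and 7294 CPM in Normoxia_PBS, 6107, 7225 and 6349 in Normoxia_DEX, 5589, 6557 and 4502 in Hypoxia_PBS and 7297, 6334 and 7164 in Hypoxia_DEX. All 4 groups overlapped in range. The log2 fold changes were -0.18 ± 0.14 and 0.08 ± 0.14 by oxygen and 0.06 ± 0.14 and 0.32 ± 0.14 after DEX. Ass1, argininosuccinate synthase, fell in hypoxia with PBS (-0.59 ± 0.17, adjusted p = 0.0148) and rose after DEX in hypoxia (0.58 ± 0.17, adjusted p = 0.0387). Ass1 was at 1639, 2027 and 2706 CPM in Normoxia_PBS, where Normoxia_PBS-3 was highest, and at 2805, 2617 and 2622 in Normoxia_DEX. In hypoxia it was at 1276, 1686 and 1261 with PBS and at 2252, 1822 and 2219 with DEX. After DEX in normoxia it was at 0.34 (adjusted p = 0.203), not called except without Normoxia_PBS-3 (0.55). The fall in hypoxia with PBS was not called without Hypoxia_PBS-1, Hypoxia_PBS-3 or Normoxia_PBS-3 (-0.54 to -0.38). The rise after DEX in hypoxia was not called without any of 7 single libraries (0.50 to 0.60), or with replicate numbers as a blocking term (0.58, adjusted p = 0.0538). Asl also rose after DEX in normoxia (0.53 ± 0.16, adjusted p = 0.0332), a call lost without any of 8 single libraries (0.39 to 0.55). After DEX in hypoxia Asl was at 0.49 ± 0.16 (adjusted p = 0.0554), called in 8 of 20 alternatives, DESeq2 and RLE size factors among them, at 0.42 to 0.66 over all 20.

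The 3 transporters that feed the cycle all rose after DEX in normoxia. Slc25a15 (chr8:22375551-22398597, minus strand), which exchanges ornithine and citrulline across the mitochondrial membrane, was at 272, 288 and 385 CPM in Normoxia_PBS and 1006, 1333 and 1131 in Normoxia_DEX. In hypoxia it was at 359, 341 and 285 with PBS and 783, 641 and 793 with DEX. Both PBS groups were low and overlapped, Normoxia_DEX was highest, and Hypoxia_DEX lay between them without overlap. The DEX response was log2 1.88 ± 0.15 in normoxia (adjusted p = 2.46e-06) and 1.17 ± 0.15 in hypoxia (adjusted p = 0.000247). With DEX, Slc25a15 fell in hypoxia, at -0.65 ± 0.15 on the log2 scale (adjusted p = 0.00345).

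Slc7a2, a plasma membrane carrier of arginine, lysine and ornithine, was at 540.4, 513 and 871 CPM in Normoxia_PBS, 987, 1298 and 1049 in Normoxia_DEX, 400.2, 420.0 and 404 in Hypoxia_PBS and 863, 761 and 868 in Hypoxia_DEX. DEX libraries were above PBS libraries at both oxygen levels. Slc7a2 rose after DEX in normoxia (0.79 ± 0.17, adjusted p = 0.00762) and hypoxia (1.03 ± 0.18, adjusted p = 0.00244), and fell in hypoxia with PBS (-0.65 ± 0.17, adjusted p = 0.0122). The fall was not called with Hypoxia_DEX-2 and Hypoxia_PBS-1 left out (-0.65, adjusted p = 0.0508), and without Normoxia_PBS-3 it was -0.37 (adjusted p = 0.0219). Slc25a13, citrin, the carrier that exports aspartate from mitochondria, rose in hypoxia with PBS (0.53 ± 0.08) and with DEX (0.37 ± 0.08), and after DEX in normoxia (0.34 ± 0.08). The call after DEX was lost without Normoxia_PBS-2 (0.27).

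Urea cycle enzymes are known to be most abundant around the portal vein, and markers of that zone moved with oxygen too. Among all tested genes, 18.9% were higher and 16.8% lower in hypoxia with PBS, and 20.7% and 22.2% with DEX. Of 7 periportal markers, 1 was higher and 5 lower in hypoxia with PBS, and 1 was higher and 3 lower with DEX. Their summed level was 3860 to 4768 CPM in Normoxia_PBS, 5268 to 5539 in Normoxia_DEX, 2791 to 3053 in Hypoxia_PBS and 3997 to 4429 in Hypoxia_DEX. Of 14 pericentral markers, 1 was higher and 5 lower with PBS, and 7 were lower with DEX. Their summed level was 11825 to 13088 CPM in Normoxia_PBS, 12917 to 15175 in Normoxia_DEX, 11856 to 12732 in Hypoxia_PBS and 12206 to 13403 in Hypoxia_DEX. The part of these zones in the results of the members was not tested.

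In glutamine and glutamate breakdown Gls2 fell in hypoxia with both treatments and Glud1 with DEX. Gls2, the liver form of glutaminase that frees ammonia from glutamine, was at 353, 391 and 516 CPM in Normoxia_PBS and 129, 163 and 109 in Hypoxia_PBS, and at 376, 419.6 and 368 in Normoxia_DEX and 171, 158 and 167 in Hypoxia_DEX. The highest hypoxia library was below the lowest normoxia library. The fall was -1.65 ± 0.15 (log2, adjusted p = 8.84e-06) with PBS and -1.23 ± 0.15 (adjusted p = 4.97e-05) with DEX. Glud1, glutamate dehydrogenase, fell in hypoxia with DEX, from 1115 ± 132 to 754 ± 40.2 CPM (-0.57 ± 0.09, adjusted p = 0.000355), and with PBS was at -0.20 ± 0.09 (adjusted p = 0.105). Gls2 overlaps Spryd4, a gene of up to 33.2 CPM.

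In proline and ornithine breakdown the steps differed. Aldh4a1, which oxidises the pyrroline carboxylate made from both amino acids, fell in hypoxia from 240.3 ± 36.1 to 154 ± 13.9 CPM with PBS (-0.65 ± 0.11, adjusted p = 0.000821) and from 261 ± 21.8 to 171 ± 17.0 with DEX (-0.62 ± 0.11, adjusted p = 0.000821). Prodh, the proline dehydrogenase before it, rose in hypoxia with DEX from 179 ± 14.0 to 272 ± 5.28 CPM (0.60 ± 0.15, adjusted p = 0.00557). With PBS, Prodh also rose (0.43 ± 0.15, adjusted p = 0.0389), but its groups overlapped at 141, 163 and 231 against 239.5, 265 and 215 CPM, and the call was lost without any of 9 single libraries (0.28 to 0.43) and with replicate numbers as a blocking term (0.44, adjusted p = 0.0548). Oat, ornithine aminotransferase, fell in hypoxia with PBS (-0.52 ± 0.17, adjusted p = 0.0342), at 1344, 1325 and 2118 CPM in Normoxia_PBS against 1273, 1107 and 949 in Hypoxia_PBS. The Oat call was lost without Hypoxia_PBS-2, Hypoxia_PBS-3 or Normoxia_PBS-3 (-0.53 to -0.27) and with the replicate block (-0.50, adjusted p = 0.0552), and Oat overlaps Fgfr2, a gene of up to 37.4 CPM. Prodh2, hydroxyproline dehydrogenase, fell after DEX in hypoxia (-0.30 ± 0.09, adjusted p = 0.0399), a call lost without any of 9 single libraries (-0.33 to -0.22).

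Of the 3 branched-chain genes, Bckdha rose in hypoxia and Bcat2 fell after DEX. Bckdha, the alpha subunit of the branched-chain ketoacid decarboxylase, rose in hypoxia from 167 ± 12.6 to 211 ± 15.6 CPM with PBS (0.34 ± 0.08, adjusted p = 0.00428) and from 180.1 ± 7.42 to 235 ± 4.38 with DEX (0.38 ± 0.08, adjusted p = 0.0014). Bckdhb, its beta subunit, was at 0.06 to 0.17 on the log2 scale and was not called. Bcat2, the mitochondrial branched-chain aminotransferase, was at 12.7, 10.4 and 12.3 CPM in Normoxia_PBS and 8.05, 7.54 and 7.46 in Normoxia_DEX, and at 17.0, 10.4 and 12.2 in Hypoxia_PBS and 7.81, 6.73 and 7.30 in Hypoxia_DEX. All DEX libraries were below all PBS libraries, with log2 fold changes of -0.62 ± 0.16 (adjusted p = 0.0152) and -0.86 ± 0.16 (adjusted p = 0.00331). The normoxia call was lost without Normoxia_DEX-2, Normoxia_DEX-3 or Normoxia_PBS-1 (-0.61 to -0.56). Bcat2 had the lowest level of the module per kilobase of exon, and its span overlaps that of 0610005C13Rik, a transcript of up to 168 CPM. With the strand setting not given and exons not compared, how far reads of the pair were told apart is not known.

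The methionine and sulfur pathway held the largest rise of the module. In hypoxia all 4 members of the methionine cycle rose (Mat1a, Gnmt, Ahcy and Bhmt), and both enzymes that carry homocysteine on to cysteine fell (Cbs and Cth), with PBS and with DEX. Bhmt (chr13:93616675-93637961, minus strand), which returns homocysteine to methionine with betaine as methyl donor, was at 1389, 1251 and 2264 CPM in Normoxia_PBS and 11965, 10315 and 9037 in Hypoxia_PBS. With DEX it was at 1889, 1558 and 2341 in normoxia and 11856, 11277 and 11849.8 in hypoxia. The lowest hypoxia library was well above the highest normoxia library. The log2 fold change was 2.67 ± 0.22 (adjusted p = 8.84e-06) with PBS and 2.60 ± 0.22 (adjusted p = 7e-06) with DEX.

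Mat1a, the liver methionine adenosyltransferase that makes S-adenosylmethionine, was at 4089.8, 3551 and 5709.8 CPM in Normoxia_PBS and 11768, 9474 and 9566 in Hypoxia_PBS, and at 5145, 5584 and 5701 in Normoxia_DEX and 14702, 13421 and 14697 in Hypoxia_DEX. Hypoxia libraries were higher throughout, by log2 1.21 ± 0.15 (adjusted p = 5.65e-05) and 1.38 ± 0.15 (adjusted p = 1.34e-05). Mat1a also rose after DEX in hypoxia (0.48 ± 0.15, adjusted p = 0.0488), a call lost without any of 9 single libraries (0.43 to 0.54). Ahcy, which hydrolyses adenosylhomocysteine, rose from 635 ± 128 to 1041 ± 75.3 CPM with PBS (0.71 ± 0.12, adjusted p = 0.000509) and from 700.5 ± 28.9 to 1172 ± 54.3 with DEX (0.74 ± 0.12, adjusted p = 0.00026). Gnmt, the methyltransferase that spends S-adenosylmethionine on glycine, rose by 0.57 ± 0.13 with DEX (adjusted p = 0.00385) and 0.43 ± 0.13 with PBS (adjusted p = 0.0217). With PBS the Gnmt groups overlapped, and the call was lost without Hypoxia_PBS-2, Normoxia_PBS-1 or Normoxia_PBS-2 (0.32 to 0.37).

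Cbs, cystathionine synthase, was at 571, 591 and 618 CPM in Normoxia_PBS and 340.4, 331 and 268 in Hypoxia_PBS, and at 625, 636 and 577 in Normoxia_DEX and 298, 313 and 297 in Hypoxia_DEX. No hypoxia library reached the lowest normoxia value, and the log2 fold changes were -0.92 ± 0.09 (adjusted p = 9.39e-06) and -1.02 ± 0.09 (adjusted p = 3.28e-06). Cth, cystathionine lyase, fell, at log2 -0.78 ± 0.27 with PBS (adjusted p = 0.0479) and -0.87 ± 0.27 with DEX (adjusted p = 0.0264). With PBS its groups overlapped, at means of 503 ± 203 CPM in Normoxia_PBS and 292 ± 74.3 in Hypoxia_PBS. The Cth calls were lost without any of 8 single libraries with PBS (-0.80 to -0.40) and 5 with DEX (-0.89 to -0.77), and the call with PBS also with the replicate block (-0.79, adjusted p = 0.0562). After DEX, Mat1a was called in hypoxia and none of the 6 in normoxia, where without Normoxia_PBS-3 Mat1a (0.52), Ahcy (0.32) and Bhmt (0.55) were.

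**Figure D3:**
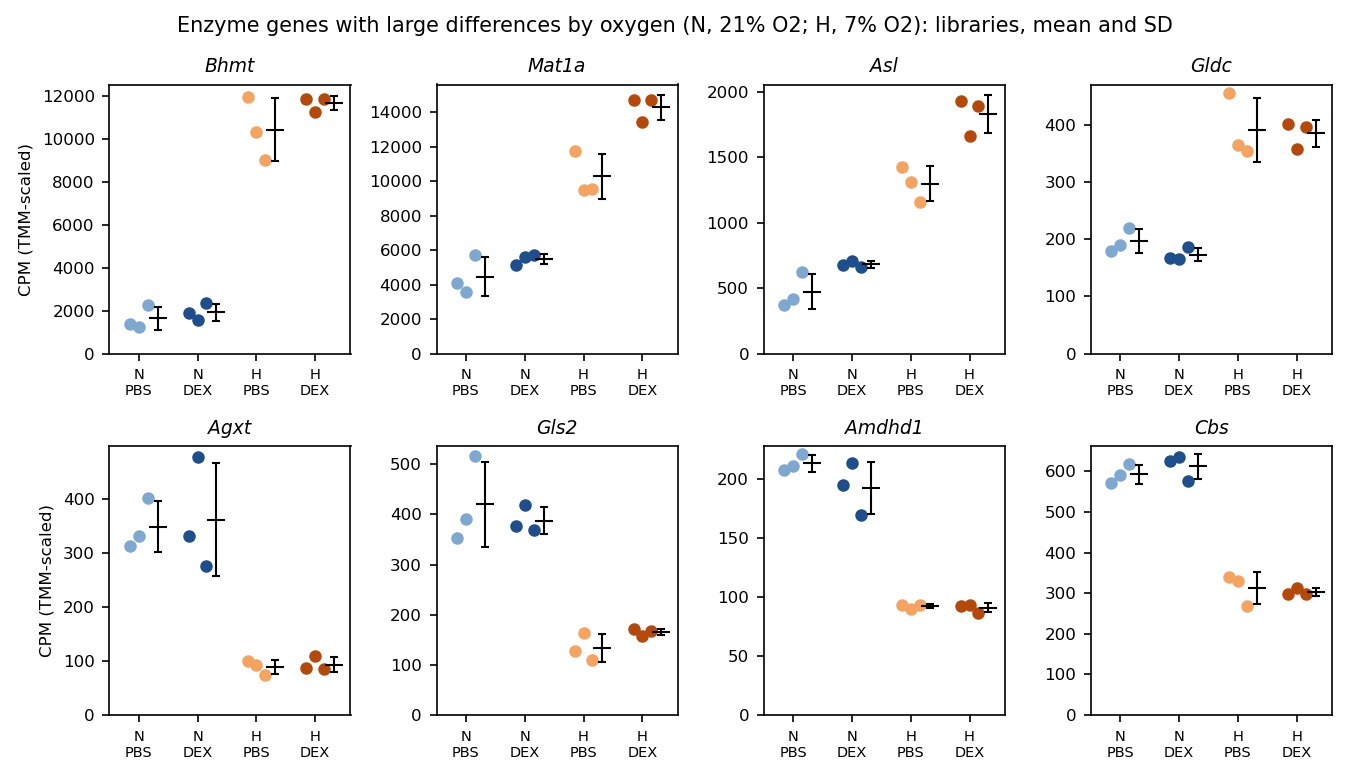
TMM-scaled CPM of 8 genes in each library (points), with mean and SD (bars, n = 3), for normoxia (N, 21% O2) and hypoxia (H, 7% O2) with PBS or DEX; each vertical axis starts at 0. Bhmt, Mat1a, Asl and Gldc (top) are higher and Agxt, Gls2, Amdhd1 and Cbs (bottom) lower in hypoxia, with no overlap between oxygen levels within a treatment.

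In histidine breakdown the first 3 enzymes fell in hypoxia and the last did not. Amdhd1, imidazolonepropionase, was at 208, 211 and 221 CPM in Normoxia_PBS and 93.5, 90.0 and 92.8 in Hypoxia_PBS, and at 195, 213 and 169.6 in Normoxia_DEX and 92.7, 93.2 and 86.6 in Hypoxia_DEX. The hypoxia libraries lay within a narrow range below all normoxia libraries. The log2 fold changes were -1.21 ± 0.08 (adjusted p = 7.59e-07) and -1.08 ± 0.08 (adjusted p = 8.1e-07). Hal, histidine ammonia-lyase, the entry enzyme, was at 448, 522 and 615 CPM in Normoxia_PBS and 327, 324 and 337 in Hypoxia_PBS, and at 470.3, 588 and 433 in Normoxia_DEX and 326, 308 and 293 in Hypoxia_DEX. Again no hypoxia library reached the normoxia range, at log2 -0.68 ± 0.12 (adjusted p = 0.000886) and -0.69 ± 0.12 (adjusted p = 0.0006).

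Hal (chr10:93488768-93519304, plus strand) and Amdhd1 (chr10:93523338-93540033, minus strand) face each other tail to tail on chromosome 10 with 4033 bases between their annotated ends. Uroc1, urocanate hydratase, the step between them, lies on chromosome 6 and also fell (-0.38 ± 0.10 with PBS and -0.43 ± 0.10 with DEX, adjusted p = 0.00927 and 0.00344). Ftcd, which transfers the formimino group left from histidine to folate, rose in hypoxia with DEX from 289.8 ± 21.0 to 396 ± 33.1 CPM (0.45 ± 0.11, adjusted p = 0.00619) and with PBS was at 0.25 ± 0.11 (adjusted p = 0.101). After DEX none of the 4 histidine genes was called at either oxygen level.

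The series crosses oxygen with DEX, so the 2 effects could be compared in libraries that do not share groups. The oxygen comparisons with PBS and with DEX have no library in common. Of the members higher in hypoxia, 13 were called in both, 76.5% of the 17 with PBS and 92.9% of the 14 with DEX. Of those lower, 14 were called in both, 82.4% of the 17 and 87.5% of the 16. Over all tested genes the corresponding shares were 73.3% and 67.0% for higher calls and 75.4% and 57.2% for lower calls. No member was called in opposite directions, and 41 of 48 (85.4%) had the same sign, against 80.4% of all genes. The log2 fold changes gave Pearson's r of 0.956 and Spearman's rho of 0.940 across the 48 genes, and 0.798 and 0.765 across all tested genes. The DEX comparisons in normoxia and hypoxia also share no library. Tat, Aass, Got1, Sds, Sdsl, Slc25a15 and Slc7a2 rose in both, 63.6% of the 11 in normoxia and 77.8% of the 9 in hypoxia, and Nags and Bcat2 fell in both. Over all tested genes these shares were 42.7% and 65.3% for higher calls and 45.8% and 48.1% for lower calls. Here too 41 of 48 members had the same sign, against 68.1% of all genes, with r of 0.891 and rho of 0.796 beside 0.677 and 0.526. Genes are not independent replicates, and these correlations are descriptions only.

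**Figure D4:**
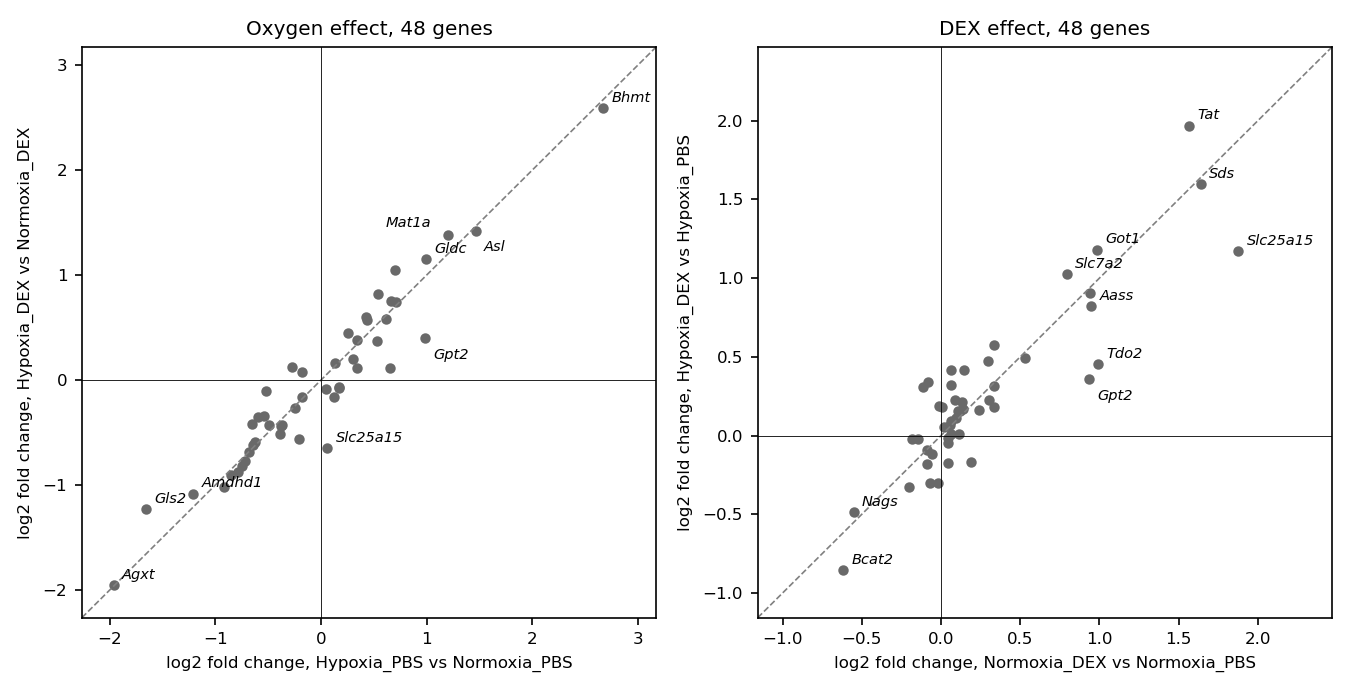
Log2 fold changes of the 48 genes for the oxygen effect (left, with PBS on the horizontal and with DEX on the vertical axis) and the DEX effect (right, in normoxia on the horizontal and in hypoxia on the vertical axis); the dashed line marks equal values. In each panel 41 of the 48 points share a sign on both axes, and Slc25a15, Tdo2 and Gpt2 lie below the line in the right panel.

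Whether the DEX response itself differed between oxygen levels was tested by the interaction, the DEX log2 fold change in hypoxia minus that in normoxia. Of the 48 members, 0 were higher and 0 lower in edgeR, where 0.325% and 0.996% of all tested genes were. The estimates ranged from -0.71 to 0.42 and the smallest adjusted p was 0.136. At an unadjusted p under 0.05, 0 were higher and 5 lower (Tdo2, Gpt2, Slc25a15, Glud1 and Prodh2), where 4.44% and 7.81% of all genes were. DESeq2 also called 0 members at an adjusted p under 0.05 and 4 at an unadjusted p under 0.05. The estimate was -0.71 ± 0.21 for Slc25a15 (adjusted p = 0.136), -0.58 ± 0.22 for Gpt2 (0.285) and -0.54 ± 0.24 for Tdo2 (0.377). Tat stood at 0.40 ± 0.38 (adjusted p = 0.742) and Sds at -0.05 ± 0.42 (0.983). Without Normoxia_PBS-3, 2 members were called lower, Slc25a15 at -0.87 (adjusted p = 0.0427) and Tdo2 at -0.79 (adjusted p = 0.0406).

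Per kilobase of annotated exon, the most abundant members in Normoxia_PBS were Gnmt at 1364 ± 302 CPM per kilobase, Mat1a at 1283 ± 324 and Cps1 at 1132 ± 165. Their ranges of mean and SD overlapped, and no test between them was made. Within each Normoxia_PBS library Gnmt (1135, 1249 and 1706) was above Cps1 (989, 1092 and 1313). The place of Mat1a (1179, 1024 and 1646) varied by library. In Hypoxia_PBS Mat1a led at 2961 ± 374, followed by Gnmt at 1841 ± 231 and Bhmt at 1813 ± 255. Tat led in Normoxia_DEX at 1928 ± 114 and Mat1a in Hypoxia_DEX at 4116 ± 213. The 3 lowest in Normoxia_PBS were Afmid at 11.8 ± 1.82, Sdsl at 5.50 ± 0.839 and Bcat2 at 3.03 ± 0.305.

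Together the 48 genes took 3.41% to 4.58% of all counts in the Normoxia_PBS libraries, 4.34% to 4.66% in Normoxia_DEX, 4.41% to 5.45% in Hypoxia_PBS and 5.74% to 6.38% in Hypoxia_DEX. Bhmt and Mat1a alone went from 0.54% to 0.83% in Normoxia_PBS to 1.89% to 2.41% in Hypoxia_PBS. Without these 2 genes the module took 2.81% to 3.75% in Normoxia_PBS, 3.64% to 3.96% in Normoxia_DEX, 2.53% to 3.04% in Hypoxia_PBS and 3.47% to 3.85% in Hypoxia_DEX. The Hypoxia_DEX libraries were the highest with the pair included, and overlapped the range of Normoxia_DEX and of Normoxia_PBS without it. The upper end of Normoxia_PBS in each range is Normoxia_PBS-3, and no test was made on these shares.

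**Figure D5:**
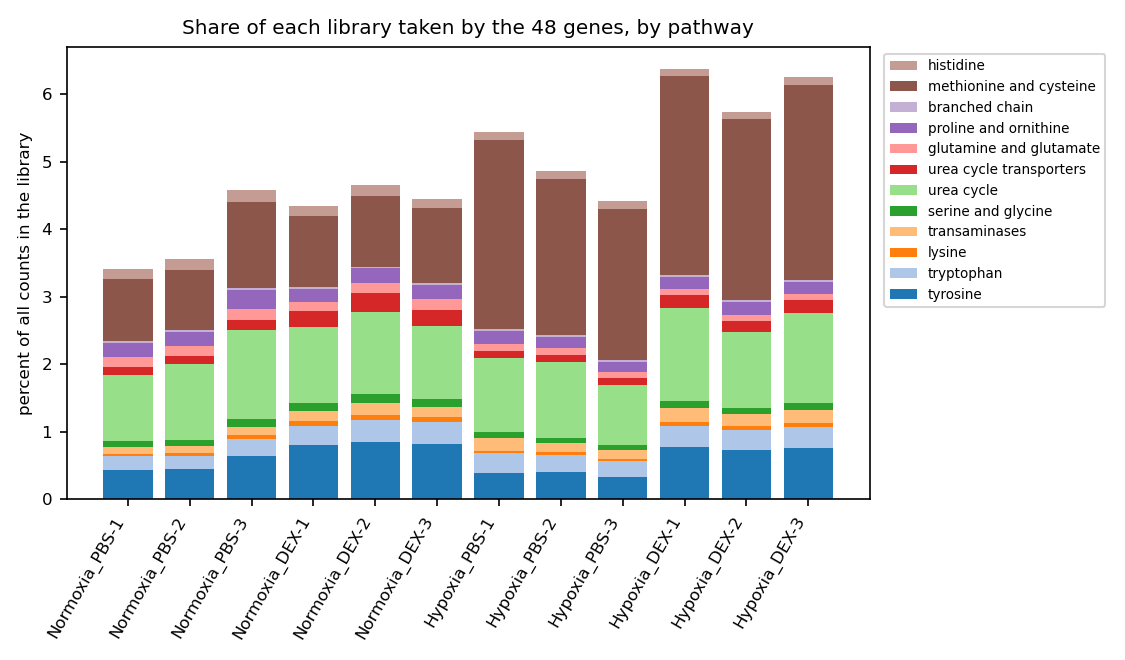
Share of all counts in each of the 12 libraries (bars, in percent, from 0) taken by the 48 genes, stacked by pathway. The methionine and cysteine band is widest in the 6 hypoxia libraries, and the totals run from 3.41% (Normoxia_PBS-1) to 6.38% (Hypoxia_DEX-1).

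Other enzymes of amino acid metabolism were taken from a list of 58, of which 53 were tested. In hypoxia with PBS 15 (28.3%) rose and 13 (24.5%) fell, against 18.9% and 16.8% of all tested genes. In hypoxia with DEX 15 (28.3%) rose and 18 (34%) fell, against 20.7% and 22.2%. After DEX in normoxia 6 (11.3%) rose and 1 (1.89%) fell, against 9.38% and 7.4%. After DEX in hypoxia 0 rose and 1 (1.89%) fell, against 6.13% and 7.05%. Dmgdh, which oxidises the dimethylglycine that Bhmt produces, rose in hypoxia by log2 1.34 ± 0.13 with PBS (adjusted p = 1.05e-05). Psat1 and Asns, which make phosphoserine and asparagine, rose with PBS by 1.42 ± 0.44 and 1.37 ± 0.48, and Psat1 rose with DEX by 1.39 ± 0.42. These calls were lost for Psat1 without any of 4 libraries with PBS (1.17 to 1.34) and 3 with DEX (1.18 to 1.33), and for Asns without any of 9 (0.996 to 1.51) and with the replicate block (1.35, adjusted p = 0.0539). Arg2, the mitochondrial arginase, fell after DEX in normoxia (-2.06 ± 0.50) and was higher in hypoxia with DEX (1.70 ± 0.52). The latter was not called without Hypoxia_DEX-3, Normoxia_DEX-2 or Normoxia_DEX-3, at 1.37 to 1.72. Levels of these genes were low. Over the 12 libraries Arg2 was at 0.062 to 1.61 CPM, Psat1 at 0.33 to 1.94 and Asns at 0.50 to 4.89. Odc1, the first enzyme of polyamine synthesis from ornithine, rose after DEX in normoxia (0.61 ± 0.09). Its hypoxia libraries were all above its normoxia libraries. Odc1 was at 31.0 to 34.1 CPM in Normoxia_PBS, 48.6 to 49.3 in Normoxia_DEX, 55.7 to 69.6 in Hypoxia_PBS and 64.9 to 78.3 in Hypoxia_DEX. Gcsh, the carrier protein of glycine cleavage, fell after DEX in hypoxia (-0.21 ± 0.06). That call was lost without any of 7 single libraries (-0.21 to -0.17). Kyat1, which transaminates kynurenine, rose after DEX in normoxia (1.19 ± 0.10) and fell in hypoxia with PBS (-1.14 ± 0.10) and with DEX (-2.24 ± 0.10). Glul, glutamine synthetase, rose in hypoxia with PBS (0.32 ± 0.09; 0.26 and not called without Normoxia_PBS-2) and after DEX in normoxia (0.38 ± 0.09).

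Of 33 listed amino acid transporters, 29 were tested. In hypoxia with PBS 4 (13.8%) rose and 7 (24.1%) fell, against 18.9% and 16.8% of all tested genes. In hypoxia with DEX 4 (13.8%) rose and 8 (27.6%) fell, against 20.7% and 22.2%. After DEX in normoxia 3 (10.3%) rose and 1 (3.45%) fell, against 9.38% and 7.4%. After DEX in hypoxia 5 (17.2%) rose and 3 (10.3%) fell, against 6.13% and 7.05%. Slc38a3, a glutamine carrier, fell in hypoxia with PBS (-1.34 ± 0.11), as did Slc3a1, a subunit of the cystine and basic amino acid carrier (-1.14 ± 0.13 with PBS and -1.20 ± 0.13 with DEX). With DEX the largest falls included Slc7a8 (-1.67 ± 0.16), a neutral amino acid exchanger, and Slc6a13 (-1.12 ± 0.10). Slc6a9, a glycine transporter, rose in hypoxia with PBS (1.25 ± 0.20) and after DEX in normoxia (0.98 ± 0.20) and hypoxia (0.82 ± 0.20; not called without Hypoxia_DEX-2, Hypoxia_DEX-3, Hypoxia_PBS-2 or Hypoxia_PBS-3, at 0.68 to 0.82). Slc38a2, a neutral amino acid carrier, rose after DEX in normoxia (1.20 ± 0.21) and hypoxia (1.14 ± 0.21). Slc25a29, a mitochondrial carrier of basic amino acids, rose after DEX in normoxia (1.23 ± 0.29; 1.02 and not called without Normoxia_DEX-3), and Slc36a1, a proton-coupled carrier of lysosomes, fell after DEX in hypoxia (-0.80 ± 0.12).

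All 18 listed regulators of the pathway were tested. In hypoxia with PBS 2 (11.1%) rose and 2 (11.1%) fell, against 18.9% and 16.8% of all tested genes. In hypoxia with DEX 4 (22.2%) rose and 1 (5.56%) fell, against 20.7% and 22.2%. After DEX in normoxia 3 (16.7%) rose and 4 (22.2%) fell, against 9.38% and 7.4%. After DEX in hypoxia 4 (22.2%) rose and 4 (22.2%) fell, against 6.13% and 7.05%. Klf15, a transcription factor known to act on amino acid breakdown genes, was at 73.9, 82.1 and 91.7 CPM in Normoxia_PBS and 158, 192 and 176 in Normoxia_DEX, and at 76.3, 59.1 and 46.9 in Hypoxia_PBS and 158, 125 and 149 in Hypoxia_DEX. All DEX libraries were above all PBS libraries, by log2 1.09 ± 0.16 (adjusted p = 0.000431) and 1.24 ± 0.16 (adjusted p = 0.000345). Its fall in hypoxia with PBS (-0.44 ± 0.16, adjusted p = 0.0461) was lost without any of 9 single libraries (-0.45 to -0.29) and with the replicate block (-0.45, adjusted p = 0.0681). Foxo1 and Foxo3, forkhead factors of the fasting response, rose after DEX by 1.21 ± 0.17 and 1.26 ± 0.19 in normoxia and 1.28 ± 0.18 and 0.91 ± 0.19 in hypoxia. Nr1h4, the bile acid receptor, rose in hypoxia with PBS (0.92 ± 0.07) and DEX (1.06 ± 0.07), and Hnf4a, a hepatocyte nuclear factor, fell (-0.70 ± 0.08 and -0.48 ± 0.08). Crtc2, a coactivator of the cAMP response, was higher in hypoxia with DEX (0.66 ± 0.08). Nr3c1, the glucocorticoid receptor itself, was called in DEX against PBS in hypoxia alone (-0.23 ± 0.07, adjusted p = 0.0469), and that call was lost in 17 of 20 alternatives, 10 of them single libraries left out (-0.23 to -0.18). Bckdk, the kinase that inhibits branched-chain ketoacid breakdown, was not called in these comparisons, though in hypoxia with DEX (0.36 ± 0.15, adjusted p = 0.0627) it passed in 6 of 20 alternatives.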

How the data were processed

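Polyadenylated RNA of 12 mouse livers was sequenced from stranded libraries, per the labels' protocols. Whole-number counts per Ensembl gene were deposited by the authors in 1 table. The submitters' processing notes name HISAT2 2.0.4, Trimmomatic, SAMtools, featureCounts, DESeq2 and the mm10 genome without roles. The gene annotation, like the strand setting of the counting, is not given in the sources used here. How far reads of overlapping genes were told apart is therefore not known. The span of 21 members overlaps that of another gene on either strand, and overlap of exons was not examined. Of 54838 identifiers, 54723 were matched to GENCODE M21 symbols.

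The members and lists were chosen with earlier results of these data known. Groups were taken from sample descriptions and oxygen levels from the treatment labels; the labels' protocol text writes hypoxia for both oxygen arms. A filter on low counts kept 13861 genes, and all 12 libraries were fitted together with edgeR 4.0.16 in R 4.3.3 (TMM scaling, quasi-likelihood test). The 5 contrasts were oxygen with PBS and with DEX, DEX in normoxia and in hypoxia, and their interaction. P-values were adjusted by Benjamini-Hochberg over all 13861 genes and called under 0.05. Per-library values are CPM computed from the deposited counts with TMM library sizes; errors are SE for log2 fold changes and SD for means (n = 3). P-values measure the spread between libraries, which the labels describe as biological replicates. If the close pair Hypoxia_DEX-1 and Hypoxia_DEX-3 were not independent, errors and p-values could be too small. Whether they were independent was not tested. Totals of 12464687 to 24715995 counts set the precision. The code was checked on simulated data.

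Values in every library are given for at most 3 members per pathway, those with the largest absolute log2 fold change among called members, and for Tat and Cps1. From each further list the 3 called genes with the largest absolute change per comparison are named, with Glul, Klf15, Nr3c1 and Bckdk in any case. Same-numbered libraries deviated together (correlations over 0.1 in every pair) between Hypoxia_PBS and Normoxia_PBS, at 0.49, 0.12 and 0.16 over the 1000 most variable genes. The other comparisons did not reach this in every pair. Between Hypoxia_DEX and Hypoxia_PBS the correlations were 0.45, 0.55 and -0.12. Values with the replicate block are given beside the member calls it removes, and beside those of further genes in hypoxia with PBS. Alternatives were DESeq2 1.42.0, RLE size factors, other low-count filters, fits of the compared groups alone, a replicate block, and leaving out or summing libraries.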

Additional observations from a re-analysis of the deposited data

Results flagged for a closer look

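In edgeR's interaction test, 2 genes of the further lists, outside the 48, had a DEX response that differed between oxygen levels. Of 53 other enzymes tested 1 was lower (1.89%), of 18 regulators 1 was higher (5.56%), and of 29 amino acid transporters 0 were called. Over all tested genes 0.325% were higher and 0.996% lower, and such single calls were not read as a property of the lists. Of the 12 endothelial markers, 1 (8.33%) was called higher and 1 (8.33%) lower in that test. Kyat1, a kynurenine aminotransferase, was at 101 to 105 CPM in Normoxia_PBS and 200.2 to 259 in Normoxia_DEX, and at 42.0 to 50.9 in Hypoxia_PBS and 47.3 to 50.7 in Hypoxia_DEX. The normoxia groups were apart and the hypoxia groups overlapped. The interaction was -1.11 ± 0.14 on the log2 scale (adjusted p = 0.00151), and it passed the threshold in every one of the 19 alternatives, from -1.18 to -1.01.

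Crtc2, a coactivator of the cAMP response, was at 44.0 to 50.2 CPM in Normoxia_PBS and 26.2 to 28.4 in Normoxia_DEX, and at 44.5 to 52.6 in Hypoxia_PBS and 41.7 to 45.3 in Hypoxia_DEX. Normoxia_DEX alone lay below the other groups. The interaction was 0.63 ± 0.11 (adjusted p = 0.0181), and it passed the threshold in every one of the 19 alternatives, from 0.57 to 0.74.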

How the results depend on the processing

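Among called members, 0 changed sign under any alternative, and in hypoxia against normoxia with DEX 14 of 14 higher and 15 of 16 lower calls were made under every one. The corresponding counts were 11 of 17 and 13 of 17 for hypoxia with PBS, 7 of 11 and 1 of 2 for DEX in normoxia, and 6 of 9 and 2 of 4 for DEX in hypoxia. Fitting only the compared groups, which leaves fewer samples to estimate the spread, gave 11 members higher in hypoxia with PBS and 2 lower after DEX in hypoxia. The latter count was also 2 with RLE size factors and with Hypoxia_DEX-1 and Hypoxia_DEX-3 summed; the cause was not tested.

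Leaving out 1 library at a time gave 12 to 18 higher and 14 to 18 lower for hypoxia with PBS, and 14 to 17 and 15 to 20 with DEX. It gave 8 to 18 higher and 1 to 2 lower for DEX in normoxia, 6 to 14 and 2 to 4 for DEX in hypoxia, and 0 to 0 and 0 to 2 for the interaction. The highest DEX counts and the 2 interaction calls came without Normoxia_PBS-3, and the 14 higher in hypoxia also without Hypoxia_PBS-1. The 1 lower after DEX in normoxia came without Normoxia_DEX-2, Normoxia_DEX-3 or Normoxia_PBS-1.

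Signs turned only for values that were not called. Tat in hypoxia with PBS ran from -0.50 to 0.14 over single libraries left out, the latter without Normoxia_PBS-3, and its interaction from -0.015 (without the same library) to 0.64. The interaction of Mat1a ran from -0.044, again without Normoxia_PBS-3, to 0.32, and that of Amt from -0.20 to 0.015, the latter without Hypoxia_PBS-2. For Asl it ran from -0.29 to 0.10, above 0 without Hypoxia_DEX-2, Hypoxia_PBS-1, Normoxia_DEX-2, Normoxia_PBS-1 or Normoxia_PBS-2, and was 0.14 with Hypoxia_DEX-2 and Hypoxia_PBS-1 left out. Cps1 after DEX in normoxia ran from -0.026 to 0.18, below 0 without Normoxia_DEX-2 or Normoxia_PBS-1. The causes were not tested.

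Correlations of same-numbered libraries ran from -0.26 to 0.55, and 6 of 12 libraries correlated best with their own number. With the replicate block, 16 rose and 15 fell in hypoxia with PBS, 14 and 16 with DEX, 10 and 2 after DEX in normoxia, 7 and 4 after DEX in hypoxia, and 0 and 0 in the interaction. It removed 3 member calls in hypoxia with PBS, those of Prodh, Oat and Cth, and, in comparisons where the numbers were not taken as pairs, Got1 after DEX in normoxia (0.98) and Got1 (1.20) and Ass1 (0.58) in hypoxia.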
